A study of Mus musculus with 2 samples.

Results

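Mesothelial cells, the flat cells that line the surface of the lung, were found as a small class among sorted lung mesenchymal cells. A cell was counted as mesothelial when it held at least 1 UMI (a unique transcript molecule) of at least 3 of the 7 genes Msln, Upk3b, Lrrn4, Wt1, Muc16, Gpm6a and Krt19, and no UMI of Epcam, Ptprc or Pecam1. Of 18351 cells that had 500 or more genes and no more than 10% mitochondrial UMIs, 158 met this rule, 40 of 8350 in the saline library and 118 of 10001 in the bleomycin library. The members were thus chosen by their own counts of these 10 genes, whose levels are given below as a description.

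The study profiled live tdTomato-positive lung cells by 10x Genomics single-cell RNA sequencing after a sort that left out cells bearing CD45, EpCAM or CD31. All mice were of the genotype Lepr-CreERT2;Rosa26-tdtomato and 8 to 10 weeks old, and received either saline or bleomycin, an anticancer drug used in mice to injure the lung and cause scarring. In such mice a Cre recombinase that acts only after tamoxifen is made from the leptin receptor gene Lepr, and a cell in which it has acted stays red for good. Each treatment had 1 library, so no test between treatments was possible, and all 95% intervals, given in brackets, cover counting error only.

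Mesothelium is a single layer of cells of mesodermal origin that carries both epithelial features, such as keratins and cell junctions, and mesenchymal ones, such as vimentin. It covers the lung and chest wall with a slippery surface rich in mucins, hyaluronan and microvilli, secretes growth factors during lung development, and is known to react to injury with inflammatory signals and matrix. Mesothelin (Msln) and mucin 16 (Muc16) are surface glycoproteins that bind each other, Wt1 is a transcription factor of the lining of the body cavities, and Upk3b is a uroplakin of its apical membrane.

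The mesothelial cells held 406979 UMIs in saline and 1780837 in bleomycin. Their median depth was 8763 UMIs per cell in saline (lowest 795, highest 25423) and 13474 in bleomycin (lowest 1897, highest 43705), against 6774 and 11740 in all other cells. Levels are given as CPM, the UMIs of a gene summed over the cells of a set and divided by all UMIs of that set, per 1000000. No gene of the reporter or the recombinase was among the 32285 counted features. The libraries shared 25 barcodes, of which 0 belonged to mesothelial cells. The labels do not say how many mice were pooled, how much bleomycin they received, or when tamoxifen was given and lungs were taken.

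Mesothelial cells made up 0.479% [0.342–0.652] of the saline cells and 1.18% [0.978–1.41] of the bleomycin cells. When the rule was applied after every cell had been thinned at random to 2000 UMIs, the shares were 39 of 8193 cells (0.476%) and 100 of 9801 (1.02%). These are shares of cells within the sorting gate of 1 library each. The spread of such shares between mice was not measured, and more mesothelial cells cannot be told apart from fewer cells of other types.

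The number of markers per cell fell into a low and a high range. Among saline cells without Epcam, Ptprc or Pecam1, 8046 had none of the 7 markers and 28 had all 7, while only 1 cell had exactly 3. The corresponding bleomycin cells numbered 9292, 79 and 4. Cells with 2 markers, just outside the rule, numbered 15 in saline and 17 in bleomycin. The claudin gene Cldn18 of alveolar epithelium had a UMI in 14 and 12 of them, and 0 and 2 lay in the graph cluster that held most mesothelial cells. The 5 members with exactly 3 markers, just inside the rule, shared epithelial transcripts with those outside it. Cldn18 had a UMI in the 1 saline and in 3 of the 4 bleomycin cells, and so did Cdh1, the gene of epithelial cadherin, and none lay in the mesothelial cluster. A further 3 saline and 10 bleomycin cells had 3 or more markers beside a UMI of a barred gene and were not counted.

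**Figure D1:**
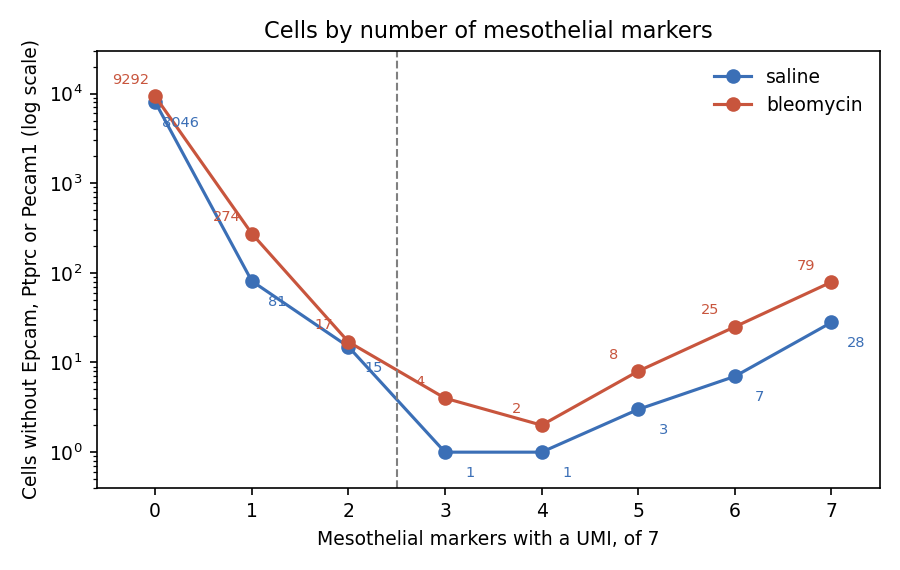
Number of cells (log scale) by how many of the 7 mesothelial markers had a UMI, for cells without Epcam, Ptprc or Pecam1 in the saline and bleomycin libraries, with the count printed at each point. Members lie right of the dashed line, where the counts are lowest at 3 and 4 markers and reach 28 saline and 79 bleomycin cells at 7.

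Clustering of all cells placed 38 of the 40 saline and 112 of the 118 bleomycin members in 1 cluster of 157 cells, which held 7 cells that were not members. Doublets were scored with Scrublet, which called 66 doublets among saline cells and 0 among bleomycin cells. The threshold of the caller was not examined, so 0 calls were not taken as an absence of doublets. No cell was removed. Of the members, 3 saline and 18 bleomycin cells were among the 5% highest doublet scores of their library. A stricter set, called core mesothelial cells below and defined after seeing the data, kept the 35 saline and 95 bleomycin cells with at least 4 markers, in that cluster and outside the 5% highest doublet scores. The 5 and 23 members left out were deeper than the core cells, with medians of 14324 and 24042 UMIs against 8486 and 11558. Values for core cells are given beside the results that differed most between the sets.

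The 7 marker genes were low in other cells as a whole, at a summed 17.7 CPM with saline and 14.6 CPM with bleomycin. Mesothelial cells had 9278 and 7129 CPM, and epithelial cells, chosen by their own markers, 970 and 937 CPM. Krt19 had a UMI in 90.9% of saline and 78.1% of bleomycin epithelial cells. Gpm6a had one in 48.1% and 18.0% of them, and Msln in 3.90% and 14.8%. Upk3b, Lrrn4, Wt1 and Muc16 had a UMI in at most 1 epithelial cell of each library. Msln stood at 2941 CPM [2777–3113] with saline and 3616 CPM [3528–3705] with bleomycin mesothelial cells, against 2.81 and 2.57 CPM in other cells. Upk3b stood at 2354 and 1184 CPM, against 2.17 and 0.617 CPM in other cells. Gpm6a, which encodes a membrane glycoprotein also found in neurons, stood at 1890 and 904 CPM, and was the 1 of the 7 at least 2-fold apart between the libraries, with a ratio of 0.478 [0.439–0.522]. In core cells that ratio was 0.569 [0.520–0.624].

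Lrrn4 was at 646 CPM with saline and 349 CPM with bleomycin, Muc16 at 545 and 299 CPM, Wt1 at 268 and 211 CPM, and the keratin gene Krt19 at 634 and 567 CPM. The cells of each library spread widely. Msln ranged from 279 CPM over a median of 2699 to 7056 CPM in saline cells and from 0 over 3822 to 11070.1 CPM in bleomycin cells. Upk3b ranged from 0 over 2491 to 7547 CPM and from 0 over 1044 to 4629 CPM. The cells of both libraries overlapped for each of the 7 markers.

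**Figure D2:**
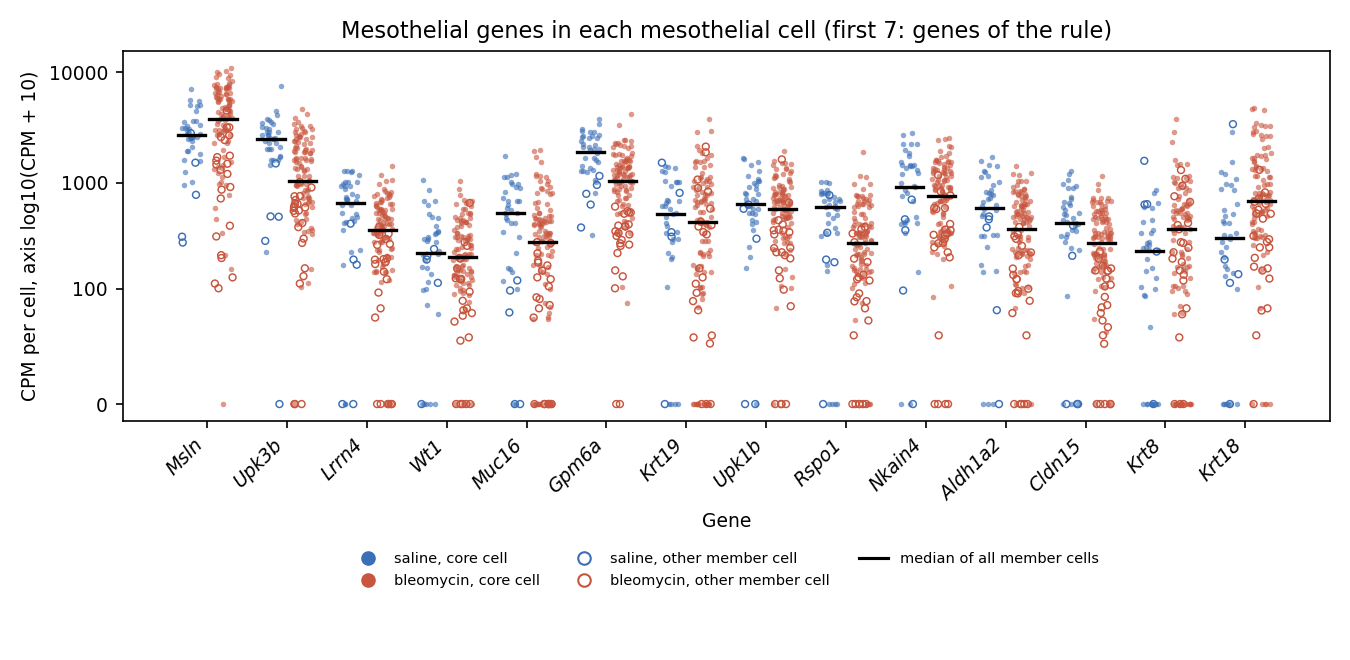
Level of 14 mesothelial genes in each mesothelial cell, in CPM on an axis of log10(CPM + 10), with 1 point per cell, filled for core and open for other member cells, and a bar at the median of all member cells. The first 7 genes defined the cells; the Msln medians lie at 2699 CPM with saline and 3822 CPM with bleomycin, and the cells of both libraries overlap in every gene.

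Genes that the rule did not use were then compared between mesothelial and other cells. A gene counted as higher when it was at least 2-fold apart in both libraries, reached 50 CPM and had a UMI in at least 5 cells, with both intervals of the ratio clear of 1. Of 3030 genes measured, 362 (11.9%) were higher and 265 (8.75%) lower in mesothelial cells. The median log2 ratio of mesothelial over other cells was 0.14 in saline and 0.06 in bleomycin over all genes measured.

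All 11 measured genes of a list of 16 further mesothelial genes were higher than in other cells, with a median log2 ratio of 5.47 in saline and 5.39 in bleomycin. Rspo1, a secreted enhancer of Wnt signalling, was at 550 CPM with saline and 299 CPM with bleomycin mesothelial cells, against 3.42 and 2.71 CPM elsewhere. Aldh1a2, the enzyme that makes retinoic acid in the mesothelium, was at 737 and 372 CPM, against 5.19 and 9.71 CPM. It was not confined to mesothelial cells. Of adventitial fibroblasts, chosen by their own markers, 23.4% with saline and 32.8% with bleomycin had an Aldh1a2 UMI. The shares of mesothelial cells were 90% and 93.2%. Rarres2, the precursor of the chemoattractant chemerin, was at 7710 and 3786 CPM, against 804 and 435 CPM. Nkain4 was at 1091 and 765 CPM, against 24.6 and 18.2 CPM. The transcription factor gene Bnc1 stayed under the level needed to be measured, at 44.2 and 27.5 CPM, with 0 and 0.00753 CPM in other cells. Calb2, the gene of calretinin and a marker of human mesothelium, had 0 UMIs in both libraries.

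The keratin and junction genes gave the epithelial side of these cells, with 9 of 9 measured genes higher and a median log2 ratio of 5.41 in saline and 5.45 in bleomycin. The 20 listed genes summed to 2887 and 3072 CPM in mesothelial cells, under the 4782 and 4431 CPM of epithelial cells. The keratin gene Krt18 was at 582 CPM with saline and 946 CPM with bleomycin, against 7.5 and 13.7 CPM in other cells. Cldn15, a pore-forming claudin, was at 484 and 257 CPM, against 0.860 and 0.602 CPM. The tight junction genes F11r, at 373 and 227 CPM, and Cgn, at 86.0 and 55.0 CPM, followed the same pattern.

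Genes of the apical surface were partly higher, 7 of 11 measured, beside 11.9% of all genes measured. They included Ezr, the gene of the microvillus linker ezrin, at 1199 CPM with saline and 994 CPM with bleomycin against 62.1 and 32.2 CPM. Its partner Slc9a3r1 was at 570 and 508 CPM, against 8.93 and 8.48 CPM. The water channel gene Aqp1 was at 2145 and 943 CPM, against 93.0 and 36.3 CPM. The hyaluronan receptor gene Cd44 was the 1 gene of the list that was lower, at 54.1 and 92.7 CPM against 118 and 198 CPM.

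The 15 genes with the largest ratios over other cells were Calcb, Prr15, Lgals2, Chst4, Slurp1, Cldn15, Pkhd1l1, Cyp2s1, Stk26, Cmah, AU021092, Dmkn, Tmem108, Dpp4 and Kdr. Calcb encodes a calcitonin gene-related peptide, and spans chromosome 7 from 114718643 to 114723365 of mm10. Its level was 68.8 CPM [45.7–99.4] with saline and 52.8 CPM [42.7–64.6] with bleomycin, against 0.0661 and 0.0376 CPM in other cells. Lgals2, a galectin gene on chromosome 15 from 78850860 to 78855529, was at 509 CPM [442–583] and 244 CPM [222–268], against 0.248 and 0.354 CPM. The chromosome 15 gene Pkhd1l1 was at 555 and 446 CPM, against 1.62 and 0.241 CPM.

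Kdr and Dpp4 are better known from other cells. Kdr encodes the main receptor of vascular endothelial growth factor and is on chromosome 5 from 75932827 to 75978458. It stood at 292 CPM [242–350] with saline and 203 CPM [182–225] with bleomycin, with a UMI in 25 of 40 and 98 of 118 cells, against 0.926 and 1.05 CPM in other cells. The 6 endothelial genes summed to 292 and 210 CPM in mesothelial cells, nearly all of it Kdr, and Pecam1 was barred by the rule. Dpp4, a surface peptidase gene used as a marker of adventitial fibroblasts, was at 342 CPM [287–403] and 162 CPM [144–182], against 0.893 and 0.7 CPM. The adventitial list was mixed. Of its 4 measured genes 1, Dpp4, was higher, 1, Pi16, was lower and 2 were neither. Pi16 was at 2.46 and 9.55 CPM in mesothelial cells, but Col14a1 was at 398 and 140 CPM. The whole list summed to 850 CPM with saline and 444 CPM with bleomycin, against 329 and 274 CPM in other cells.

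Promoters of the genes that set these cells apart were searched for GGAATG, the core letters bound by TEAD transcription factors, or its reverse complement CATTCC, in the 250 bases before the start. Of the 7 rule genes and these 15 genes, 15 had a promoter in the RefSeq table (build GRCm38.p6), and 6 of them (40%) held the letters: Upk3b, Lrrn4, Gpm6a, Cldn15, Dpp4 and Tmem108. Over all 27025 genes of the table the share was 14.4%. Not matched were AU021092, Calcb, Krt19, Msln, Pkhd1l1, Slurp1 and Wt1. Shown are the windows of 3 genes of the apical membrane, cell surface and junctions, 5′ to 3′ on the strand of the gene, with the motif in capitals. A match is a description of these letters and does not show binding.
Upk3b, chr5:136038246-136038495, plus strand: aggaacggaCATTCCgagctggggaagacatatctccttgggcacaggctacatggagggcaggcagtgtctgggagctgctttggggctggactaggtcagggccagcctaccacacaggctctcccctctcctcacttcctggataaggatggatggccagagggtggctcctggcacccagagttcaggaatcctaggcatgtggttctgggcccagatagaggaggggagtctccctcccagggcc
Lrrn4, chr2:132880863-132881112, minus strand: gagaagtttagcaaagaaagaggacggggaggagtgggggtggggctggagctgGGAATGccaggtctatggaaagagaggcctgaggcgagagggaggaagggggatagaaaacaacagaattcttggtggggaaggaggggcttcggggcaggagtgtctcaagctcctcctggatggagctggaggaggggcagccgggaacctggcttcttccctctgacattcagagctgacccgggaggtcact
Cldn15, chr5:136967619-136967868, plus strand: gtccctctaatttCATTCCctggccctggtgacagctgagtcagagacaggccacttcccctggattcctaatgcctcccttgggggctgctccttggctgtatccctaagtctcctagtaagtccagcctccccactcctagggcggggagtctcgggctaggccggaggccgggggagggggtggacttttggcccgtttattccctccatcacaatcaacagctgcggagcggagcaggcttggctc

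Genes of several secreted products stood far above their level in other cells. Igfbp5 and Igfbp6, which bind insulin-like growth factors, were at 8767 and 10455 CPM in saline mesothelial cells, against 158 and 864 CPM in other cells of that library. In bleomycin they were at 5129 and 2766 CPM, against 244 and 262 CPM. Tgfb2, a transforming growth factor ligand gene, was at 401 and 194 CPM, against 58.3 and 80.2 CPM. Of 10 measured complement genes 5 were higher, beside 11.9% of all genes measured. Among the 5 were C3 at 6674 and 6374 CPM against 1044 and 723 CPM, and Cfb at 774 and 1124 CPM against 77.4 and 95.7 CPM. Il33, an alarm cytokine gene, was at 101 and 160 CPM, against 12.3 and 32.2 CPM.

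Receptor genes gave 2 of 12 higher and 4 of 12 lower, where 11.9% of all genes measured were higher and 8.75% lower. Met, the receptor of hepatocyte growth factor, was at 63.9 CPM with saline and 57.8 CPM with bleomycin, against 0.959 and 0.858 CPM in other cells. Smo, the signal transducer of the hedgehog pathway, was at 177 and 76.9 CPM, against 23.7 and 27.2 CPM. Pdgfra, the growth factor receptor that marks most lung fibroblasts, was at 29.5 and 59.0 CPM, against 518 and 281 CPM.

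The leptin receptor gene Lepr, whose activity drives the recombinase, was scarcely detected in mesothelial cells. It had a UMI in 1 of 40 saline cells (2.5% [0.0633–13.2]) and 3 of 118 bleomycin cells (2.54% [0.527–7.25]). The share in other cells was 29.0% in saline and 11.4% in bleomycin. Epithelial cells, which served as background, had a UMI in 1 of 77 (1.30%) and 4 of 128 (3.12%), at median depths of 5913 and 8827 UMIs. The mesothelial shares thus lay at the background. After thinning to 2000 UMIs the counts were 0 of 38 and 0 of 117 mesothelial cells, which allows shares of up to 9.25% and 3.10% by the exact binomial limit, against 10.8% and 2.63% of other cells. A reporter mark outlasts the activity of the gene, and the transcript of the reporter was not among the counted features.

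Most listed markers of other cell types that the gate could hold were lower than in other cells or near 0. The adventitial fibroblast list, given above, was an exception. All 6 smooth muscle genes were lower than in other cells, beside 8.75% of all genes measured. Myh11, the smooth muscle myosin gene, had 0 UMIs in saline mesothelial cells and stood at 3.37 CPM in bleomycin, against 164 and 112 CPM. The cardiac actin gene Actc1 had 0 UMIs in both libraries, against 164 and 93.7 CPM in other cells. Of the 5 measured alveolar fibroblast genes 4 were lower, among them Inmt at 268 and 40.4 CPM against 2873 and 387 CPM. A single saline cell held 46.8% of the Inmt UMIs, and core cells had 63.7 and 11.7 CPM.

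The 8 genes of alveolar and airway epithelium summed to 93.4 CPM with saline and 85.9 CPM with bleomycin mesothelial cells, against 1074 and 774 CPM in other cells. Ager and Hopx, alveolar type I genes outside that list and named after their values were seen, were at 174 and 170 CPM with saline and 327 and 225 CPM with bleomycin. A single saline cell held 97.2% of the Ager UMIs and 8 bleomycin cells had one. In core cells Ager was at 5.79 and 1.68 CPM and Hopx at 49.2 and 30.2 CPM. The 6 leukocyte genes summed to 2.46 and 7.30 CPM, the 5 pericyte genes to 7.37 and 39.3 CPM and the 3 glial genes to 4.91 and 1.12 CPM. The endothelial genes Cdh5, Cldn5, Emcn and Prox1 were at 0.562 CPM or less in each library. Cells with Epcam, Ptprc or Pecam1 were barred, so low epithelial, leukocyte and endothelial levels were favoured by the choice of cells. Beside the 5 cells with exactly 3 markers, 1 saline and 2 bleomycin members with at least 4 markers lay outside the mesothelial cluster, and 3 such bleomycin members had a Cldn18 UMI.

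**Figure D3:**
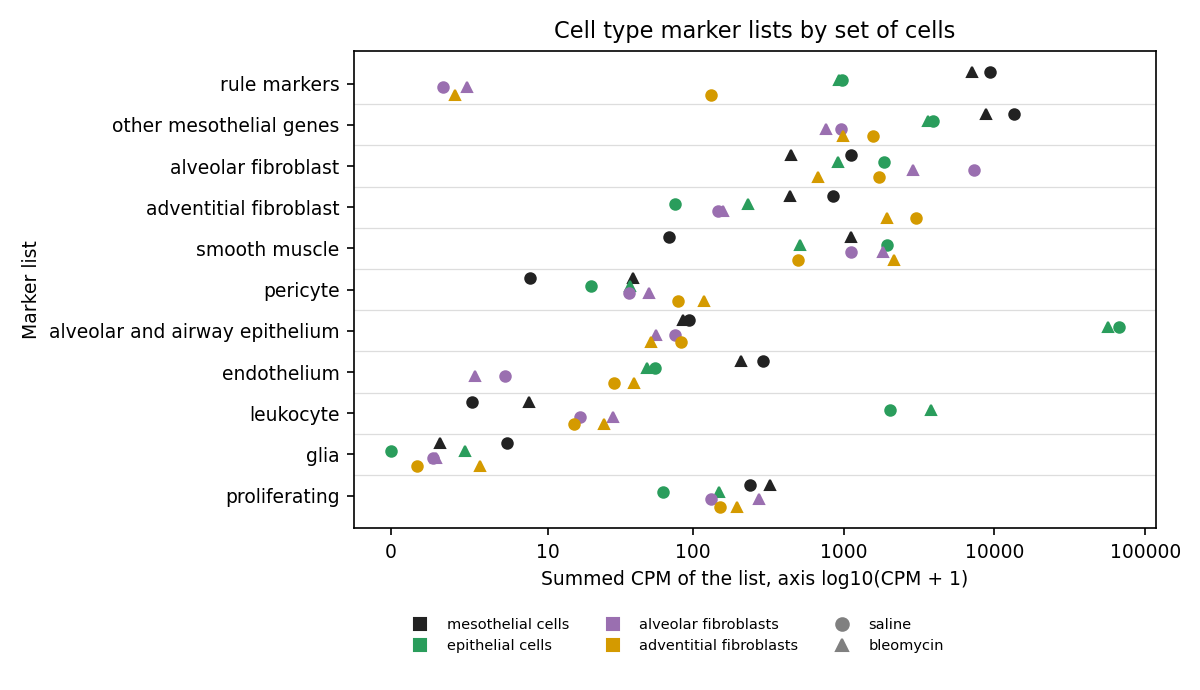
Summed CPM of each cell type marker list (axis of log10(CPM + 1)) in mesothelial cells and, as comparators chosen by their own markers, in epithelial cells, alveolar fibroblasts and adventitial fibroblasts, with circles for saline and triangles for bleomycin. The mesothelial cells lead both mesothelial lists and lie far below the epithelial cells in the epithelial list, at 93.4 and 85.9 CPM.

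The mesothelial cells were not uniform. Slurp1, the gene of a small secreted protein of the Ly6 family, had a UMI in 21 of 40 saline and 71 of 118 bleomycin cells. Its level ran from 0 over a median of 68.1 to 8334 CPM in saline cells and from 0 over 292 to 13128 CPM in bleomycin cells. Slpi, a secreted protease inhibitor gene, had a UMI in 21 of 40 and 89 of 118 cells, with highest values of 28785 and 16369.5 CPM. Dmkn, a secreted protein gene known from skin, had a UMI in 21 of 40 and 82 of 118 cells. Pkhd1l1 by contrast had a UMI in 38 of 40 and 111 of 118 cells. Slurp1, Slpi and Dmkn were thus detected in some of the cells in both libraries. The markers Msln and Gpm6a had a UMI in nearly all, 40 and 40 of 40 saline and 117 and 116 of 118 bleomycin cells. Both are genes of the rule, so their shares were favoured by the choice of cells and are no yardstick for the other genes.

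Genes of cell division were rare. UMIs of at least 2 of the 12 proliferation genes were found in 3 of 40 saline and 33 of 118 bleomycin mesothelial cells. After thinning to 2000 UMIs they were found in 1 of 38 (2.63% [0.0666–13.8]) and 7 of 117 (5.98% [2.44–11.9]). The same shares of other cells were 0.723% and 5.32%, and those of the epithelial cells 0 of 77 and 2.38%. Of the core cells 0 of 33 and 3 of 94 qualified, which allows up to 10.6% in saline. These numbers are too small to order the libraries, and no cycling was read from them.

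Bleomycin and saline were then compared within the mesothelial cells. A gene counted as higher in a library when it was at least 2-fold apart, reached 50 CPM with a UMI in at least 5 cells there, and had an interval of the ratio clear of 1. Of 3452 genes measured, 177 (5.13%) were higher and 214 (6.2%) lower in bleomycin, with a median log2 ratio of −0.08 over all. In core cells 156 of 3448 (4.52%) were higher and 194 (5.63%) lower (median −0.04). In all other cells 180 of 3067 (5.87%) were higher and 215 (7.01%) lower (median 0.00). With 1 library per treatment none of these differences could be set against a spread between animals, and library, depth and treatment cannot be told apart.

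Of the 11 measured further mesothelial genes 0 were higher and 1, Rarres2, was lower, with a ratio of 0.491 [0.471–0.512], and the median log2 ratio was −0.39, a share of calls near that over all genes. In core cells 2 were higher, the paired keratin genes Krt8 and Krt18, and 0 lower. Krt18 was at 507 CPM with saline and 1242 CPM with bleomycin core cells, a ratio of 2.45 [2.09–2.88], and Krt8 at 232 and 543 CPM, a ratio of 2.34 [1.86–2.996]. Over all members Krt18 had a ratio of 1.62 and Krt8 of 1.54, short of the limit. Per cell, Krt18 ran from 0 over a median of 325 to 2895 CPM with saline and from 0 over 776 to 4734 CPM in bleomycin core cells, so the cells overlapped.

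Of 11 measured keratin and junction genes 1, Cdh3, the gene of P-cadherin, was higher and 0 were lower, with a median log2 ratio of −0.06. In core cells 3 were higher, Krt8, Krt18 and Cdh3, and 0 lower (median −0.02). The shares over all genes were 5.13% higher and 6.2% lower, and 4.52% and 5.63% in core cells. Mpzl2, an epithelial adhesion gene named after its value was seen, was also higher. Cdh3 was at 19.7 CPM [8.49–38.7] with saline and 56.2 CPM [45.7–68.3] with bleomycin, with a UMI in 7 of 40 and 53 of 118 cells. Its ratio was 2.86 [1.40–6.80], and 3.68 in core cells. Mpzl2 stood at 20.3 and 110 CPM in core cells, a ratio of 5.42 [2.56–13.7], and at 0.215 and 1.05 CPM in other cells.

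Among the apical genes, 2 of 12 measured were higher and 1 lower, against 3 and 1 in core cells. Over all genes 5.13% were higher and 6.2% lower. Prg4 encodes lubricin, a mucin-like lubricant of joints and body cavities. The gene spans chromosome 1 from 150449412 to 150466165 of mm10. No UMI was found in the 40 saline cells. In bleomycin 63 of 118 cells had one, from 0 over a median of 46.6 to 5741 CPM, and the level was 161 CPM [143–180]. Against a floor of 3 UMIs the level was at least 21.8-fold higher, and at least 25.6-fold in core cells, where it was 222 CPM. Other cells of the libraries had 0.909 and 5.61 CPM, and 0 of 77 and 0 of 128 epithelial cells had a UMI. The bleomycin mesothelial share thus lay above that of epithelial cells. Adventitial fibroblasts, chosen by their own markers, also held Prg4, at 16.0 CPM with saline and 33.6 CPM with bleomycin. Bleomycin members outside the core stood at 35.7 CPM. After thinning, 25 of 117 bleomycin mesothelial cells kept a UMI (21.4% [14.3–29.9]), and 0 of 38 saline ones.

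Has1, a hyaluronan synthase gene, was at 235 CPM with saline and 491 CPM with bleomycin core cells, a ratio of 2.09 [1.66–2.68], while over all members the ratio was 1.88. Msn, encoding moesin, a relative of ezrin, was at 49.1 and 199 CPM, a ratio of 4.06 [2.59–6.72], and 2.88 in core cells. Aqp1 was lower, with a ratio of 0.440 [0.405–0.478].

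Acute phase and antimicrobial genes stood mostly higher in bleomycin. Of 6 measured genes 4 were higher and 1 was lower (median log2 ratio 3.70), against 3 higher and 0 lower in core cells with a median of 2.55. The shares over all genes were 5.13% higher and 6.2% lower, and 4.52% and 5.63% in core cells. Saa3, a serum amyloid A gene of inflamed tissue, had 0 UMIs in saline and 791 CPM [750–833] in bleomycin, at least 107-fold higher, and 884 CPM in core cells. The UMIs were uneven, since 34 of 118 cells had one, the highest cell stood at 25939.7 CPM and 1 cell held 35.6% of them. Epithelial cells had a Saa3 UMI in 21 of 128 (16.4% [10.5–24.0]) against 28.8% [20.8–37.9] of mesothelial cells. These intervals overlapped, as did those after thinning, at 6.35% [2.78–12.1] in epithelial and 16.2% [10.1–24.2] in mesothelial cells.

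Lcn2, the gene of the iron-binding protein lipocalin 2, was at 4.91 CPM with saline and 142 CPM [125–161] with bleomycin, a ratio of 28.9 [7.92–240], and 24.5 in core cells. It had a UMI in 2 of 40 and 66 of 118 cells, with a median of 61.1 CPM per bleomycin cell. The share was 55.9% in bleomycin mesothelial cells, 28.3% in other cells and 40.6% in epithelial cells, which can make the protein themselves. After thinning, it was 20.5% [13.6–29.0] in mesothelial and 30.95% [23.0–39.8] in epithelial cells, so the mesothelial share did not lie above that of epithelial cells at equal depth. Saa3 and Lcn2 also differed in the same direction in other cells, with ratios of 3.75 and 4.03. The difference between the classes was not tested.

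**Figure D4:**
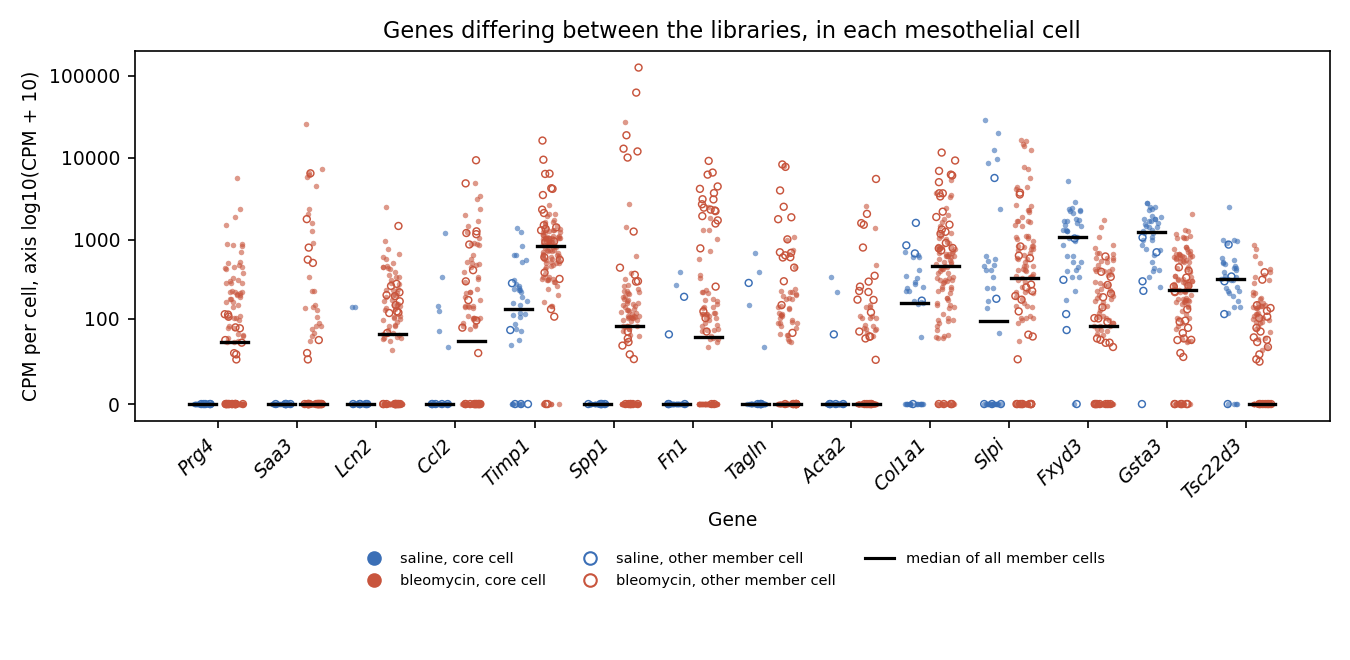
Level of 14 genes in each mesothelial cell of the saline and bleomycin libraries, in CPM on an axis of log10(CPM + 10), with filled points for core cells, open points for other member cells and a bar at the median. Prg4 and Saa3 have no saline cell above 0, the highest Spp1 and Fn1 values in bleomycin belong mostly to open points, and Fxyd3 and Gsta3 lie lower in bleomycin with overlapping cells.

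Of the chemokine and cytokine genes, 5 of 10 measured were higher over all members, beside 5.13% of all genes. In core cells 2 were higher, Ccl2 and Ccl7, beside 4.52% of all genes. Ccl2, which attracts monocytes, was at 39.3 CPM with saline and 644 CPM with bleomycin, a ratio of 16.4 [10.0–28.8], and at 46.3 and 449 CPM in core cells. It had a UMI in 6 of 40 and 60 of 118 cells, from 0 over a median of 52.3 to 9359 CPM in bleomycin. Ccl7 was at 22.1 and 168 CPM, and 1 bleomycin cell held 48.2% of its UMIs. The level of Cxcl12 was 2.46 CPM with saline and 69.6 CPM with bleomycin, but 9.22 CPM in bleomycin core cells, where it was not called.

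Several further genes were higher in the core cells. Trem2, a lipid-sensing receptor gene best known from macrophages, was at 5.79 CPM with saline and 62.9 CPM with bleomycin core cells, a ratio of 10.9 [2.90–91.3], with a UMI in 1 of 35 and 26 of 95 cells and 0.165 and 1.82 CPM in other cells. The saline Trem2 value rests on 2 UMIs. The 6 leukocyte genes summed to 2.90 and 7.55 CPM in the same cells. Cells with Ptprc were barred by the rule, so a low sum was favoured by the choice of cells. The source of the Trem2 counts was not tested. Axl, a receptor tyrosine kinase gene, was at 11.6 and 82.2 CPM, a ratio of 7.09 [2.68–26.5]. Ptgs2, the inducible prostaglandin synthase gene, was at 49.2 and 267 CPM, a ratio of 5.43 [3.34–9.44]. Cdkn1a, a cell cycle inhibitor and p53 target gene, was at 223 and 513 CPM, a ratio of 2.30 [1.81–2.96].

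Genes of matrix and of the change from mesothelial to mesenchymal cells were higher over all members, and much of that difference lay outside the core cells. For fibrillar matrix, 12 of 19 measured genes were higher and 1 was lower (median log2 ratio 1.88), against 6 and 1 in core cells with a median of 0.77. Of 11 measured transition genes 7 were higher and 0 were lower (median 2.08), against 6 and 0 in core cells with a median of 1.01. Both lists stand beside 5.13% higher and 6.2% lower over all genes, and 4.52% and 5.63% in core cells. Fn1, the fibronectin gene, was at 34.4 CPM with saline and 1151 CPM with bleomycin, a ratio of 33.4 [19.9–61.3], but at 31.9 and 189 CPM in core cells, a ratio of 5.92 [3.25–12]. After thinning, 10.6% of bleomycin core cells had an Fn1 UMI, under the 29.4% of epithelial cells, so the core share did not lie above this comparator. The epithelial level was itself 44.4 CPM with saline and 983 CPM with bleomycin. Whether epithelial cells make Fn1 was not tested, so they are an uncertain background for it.

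Col1a1, a chain of type I collagen, was at 285 CPM with saline and 1658 CPM with bleomycin, a ratio of 5.82 [4.83–7.06], and at 200 and 705 CPM in core cells, a ratio of 3.53 [2.76–4.58]. Per core cell it ran from 0 over a median of 55.6 to 710 CPM with saline and from 0 over 343 to 5360 CPM in bleomycin. After thinning, 46.8% [36.4–57.4] of bleomycin core cells had a Col1a1 UMI against 16.7% [10.6–24.3] of epithelial cells, so these counts lay above the background. The same thinned share of saline core cells was 39.4% [22.9–57.9], an interval that overlaps that of bleomycin. Col5a2 was at 78.2 and 416 CPM in core cells, a ratio of 5.32 [3.61–8.15], and Eln, the elastin gene, at 574 and 1356 CPM, a ratio of 2.36 [2.04–2.75]. Col14a1, a fibril-associated collagen gene, was lower, at 398 and 140 CPM.

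The smooth muscle actin gene Acta2 and its companion Tagln illustrate the spread. Tagln was at 39.3 CPM with saline and 720 CPM with bleomycin, a ratio of 18.3 [11.2–32.2], and at 37.7 and 288 CPM in core cells, a ratio of 7.64 [4.41–14.5]. Acta2 was at 19.7 and 279 CPM, a ratio of 14.2 [7.14–33.0], and at 20.3 and 99.8 CPM in core cells. A UMI of Acta2 was present in 3 of 40 saline and 37 of 118 bleomycin cells, and in 19 of the 95 bleomycin core cells. After thinning, 7.45% [3.05–14.7] of bleomycin core cells had an Acta2 UMI, against 10.3% of epithelial cells. For Tagln the shares were 16.0% [9.22–24.95] and 14.3%. Neither core share thus stood clear of that of epithelial cells, whose own expression of these genes was not tested. When 2 markers sufficed for membership, the Tagln ratio was 1.61, under the limit. The list of 6 smooth muscle genes summed to 68.8 CPM with saline and 1114 CPM with bleomycin members, and to 63.7 and 448 CPM in core cells, with Myh11 at 0 and 3.35 CPM.

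Spp1, the osteopontin gene on chromosome 5 from 104435118 to 104441050, was also carried largely by members outside the core. It had 0 UMIs in saline and 4961 CPM [4858–5066] in bleomycin, at least 673-fold higher, but 626 CPM in core cells, at least 72.1-fold higher. A single bleomycin cell held 44.9% of the Spp1 UMIs, at 126286 CPM, and was one of the members with exactly 3 markers. The median bleomycin cell had 78.9 CPM. Other cells had 2.91 CPM with saline and 7306 CPM with bleomycin. A UMI was present in 61.9% [52.5–70.6] of mesothelial and 49.2% [40.3–58.2] of epithelial cells, and in 28.2% and 18.3% after thinning. The intervals before thinning overlapped, so the mesothelial share did not stand clear of the epithelial one. Serpine2, a protease inhibitor gene, was at 12.3 and 587 CPM over all members and 8.69 and 57.8 CPM in core cells. Cthrc1, Postn and Tnc, genes of fibrotic fibroblasts, had 0 UMIs in saline, reached 126, 56.7 and 143 CPM in bleomycin members, and 25.2, 12.6 and 23.5 CPM in core cells, where none was called.

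Timp1, an inhibitor of matrix proteases, had a UMI in 30 of 40 saline and 111 of 118 bleomycin cells. Its level ran from 0 over a median of 134 to 1376 CPM in saline cells and from 0 over 846 to 16275 CPM in bleomycin cells. The level was 204 CPM [162–253] with saline and 1728 CPM [1668–1791] with bleomycin, a ratio of 8.47 [6.81–10.7], and 3.88 [3.07–4.95] in core cells. After thinning, 77.8% of bleomycin mesothelial cells had a UMI against 19.8% of epithelial cells. Timp3 and Adamts1 were higher too, with ratios of 2.24 [1.89–2.67] and 2.92, and their ratios in other cells were 0.644 and 0.696. In the basement membrane list 4 of 13 measured genes were higher and 0 lower, against 3 higher and 1, Col4a4, lower in core cells. Among all genes measured 5.13% were higher and 6.2% lower, and 4.52% and 5.63% in core cells. The higher basement membrane genes included Col4a1 with 111 and 391 CPM and Col4a2 with 59.0 and 247 CPM.

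**Figure D5:**
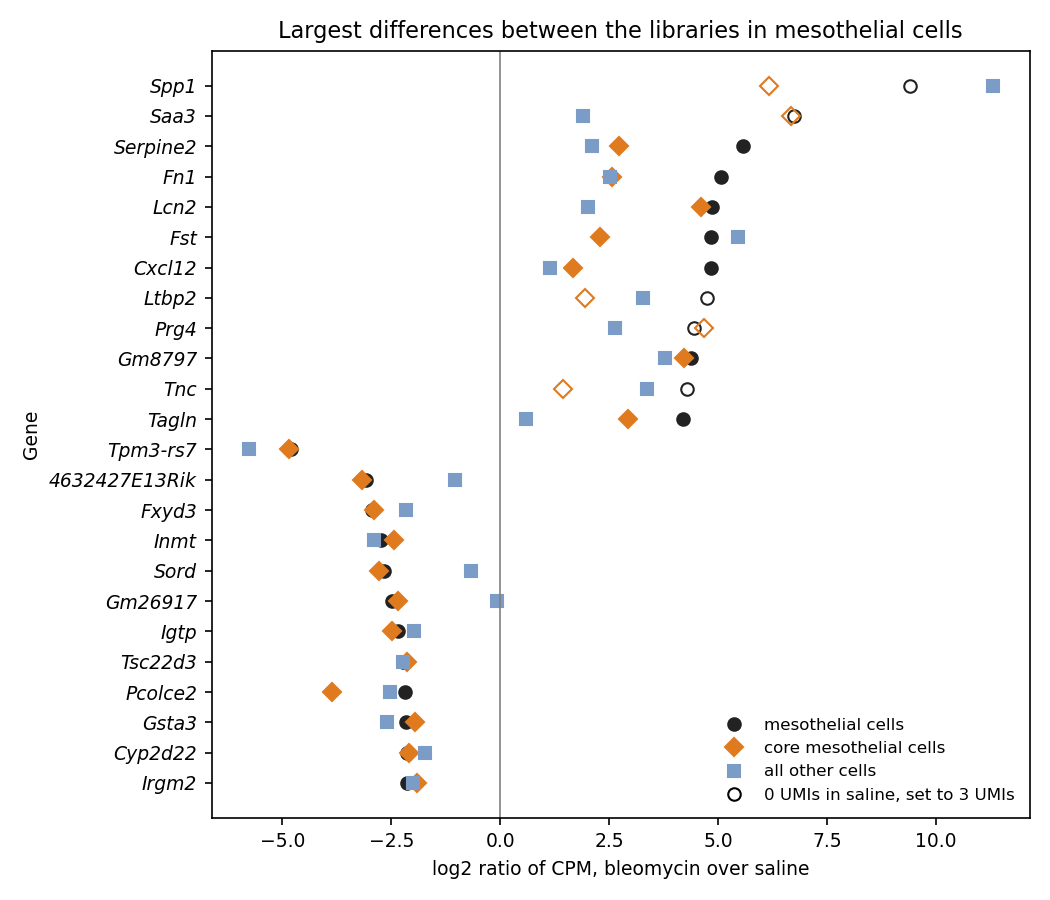
Log2 ratio of CPM, bleomycin over saline, of the 12 genes with the highest and the 12 with the lowest ratios in mesothelial cells, for all members (black), core members (orange) and all other cells (blue); open symbols mark 0 UMIs in saline set to 3 UMIs. Spp1, Serpine2, Fn1, Cxcl12, Ltbp2 and Tnc lie lower in core than in all members, while Saa3, Lcn2 and Prg4 lie close together, as do most genes lower in bleomycin.

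The 12 genes with the lowest ratios, bleomycin over saline, were Tpm3-rs7, 4632427E13Rik, Fxyd3, Inmt, Sord, Gm26917, Igtp, Tsc22d3, Pcolce2, Gsta3, Cyp2d22 and Irgm2, and all 12 were also lower in core cells. Fxyd3, a regulator of the sodium pump on chromosome 7 from 31068172 to 31076704, was at 1329 CPM [1220–1446] with saline and 172 CPM [153–192] with bleomycin, a ratio of 0.129 [0.112–0.149]. It ran from 0 over a median of 1064 to 5208 CPM in saline cells and from 0 over 78.9 to 1719 CPM in bleomycin cells. Other cells had 8.68 and 1.95 CPM. Tpm3-rs7 is named as a related sequence of the tropomyosin gene Tpm3, so its level, at 78.6 and 2.81 CPM, is uncertain.

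Among the same 12 were genes of metabolic enzymes. Gsta3, a glutathione transferase gene, was at 1295 CPM [1187–1410] with saline and 291 CPM [267–318] with bleomycin, a ratio of 0.225 [0.199–0.255]. Per cell it ran from 0 over a median of 1235 to 2828 CPM with saline and from 0 over 234 to 2036 CPM in bleomycin. Cyp2d22, a cytochrome P450 gene, was at 86.0 and 19.7 CPM, and Sord, the gene of sorbitol dehydrogenase, at 63.9 and 10.1 CPM. Tsc22d3, a target gene of glucocorticoids, was at 364 CPM [307–427] and 78.1 CPM [65.6–92.2], for a ratio of 0.215 [0.169–0.272]. Its ratio in other cells was 0.213 and that of Gsta3 was 0.164.

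Igtp, an interferon-inducible GTPase gene, was at 71.3 CPM with saline and 14.0 CPM with bleomycin, a ratio of 0.197 [0.111–0.348]. Irgm2, at 63.9 and 14.6 CPM, overlaps Igtp on the same strand of chromosome 11, so their reads may be shared. In core cells Iigp1 had a ratio of 0.201 [0.124–0.323] and Irgm1 of 0.213 [0.0990–0.449]. Of 10 measured genes of interferon response and antigen presentation 0 were higher and 2, H2-K1 and H2-D1, were lower. Over all genes 5.13% were higher and 6.2% lower. In core cells H2-K1 was also called. H2-K1, a class I antigen-presenting gene, was at 2585 and 1143 CPM, a ratio of 0.442 [0.410–0.477], and Psmb8, an immunoproteasome gene, at 78.6 and 125 CPM, which was not called.

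Of 21 measured genes of growth factors and their binding proteins, 6 were higher and 3 lower, against 1 and 2 in core cells. Over all genes 5.13% were higher and 6.2% lower, and 4.52% and 5.63% in core cells. Igfbp6 had a ratio of 0.265 [0.254–0.276], and 0.337 in core cells. Tgfb2 had a ratio of 0.485 [0.402–0.588], with 1.37 in other cells. Smo had a ratio of 0.435 [0.325–0.587] and Ptch1, the hedgehog receptor and target gene, of 0.410 [0.299–0.567]. Gli1, another hedgehog target, was at 39.3 CPM with saline and 9.55 CPM with bleomycin, under the level needed for a call. The transcription factor genes Meis1 and Sox6 were lower, with ratios of 0.399 [0.270–0.594] and 0.449 [0.282–0.729], and both were also called in core cells.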

How the data were processed

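Sorted cells of 1 saline and 1 bleomycin library were measured with 10x Genomics 3' chemistry, version 3. The authors made the deposited count matrices of UMIs per gene and cell with Cell Ranger 6.1.2 on mm10, per the submitters' processing notes. Cells with at least 500 genes and at most 10% mitochondrial UMIs were kept. UMIs were summed over the cells of a set and given as CPM with exact Poisson intervals. Ratios of sums had exact conditional binomial intervals and shares had Clopper-Pearson intervals, at 95%. These cover counting error only, and cells were not treated as replicates, so no p-value is given. A gene with 0 UMIs in a set was put at a floor of 3 UMIs per set to give a fold. That fold is not the lower limit of the 95% interval, which lay below it for the genes named.

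Cells were clustered on 2000 variable genes, 30 principal components and 15 neighbours (Leiden, resolution 0.5) and scored with Scrublet at an expected rate of 7%. No doublet was removed. Comparator classes were cells with at least 3 of 8 epithelial markers, at least 4 of 6 adventitial or at least 4 of 7 alveolar fibroblast markers. Thinning drew 2000 UMIs per cell and left out shallower cells. Python 3.11.15, numpy 2.4.6, scipy 1.17.1, pandas 2.3.3, scanpy 1.11.5, scikit-learn 1.9.0, igraph 0.11.9 and matplotlib 3.10.9 were used, and the computation was tested on simulated data. Gene positions came from GENCODE and promoter sequences from RefSeq.

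Named genes were the rule genes, the 15 highest and 10 lowest against other cells, the 12 highest and 12 lowest between treatments, and members of the gene lists. Mpzl2, Trem2, Axl, Iigp1 and Irgm1, and Ager and Hopx, were named after their values were seen. The members and lists were chosen with earlier results of these data known. Alternatives covered the member rule, filters, the fold and CPM limits, scaling and the doublet scores. A gene of the lists is not reported here.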

Additional observations from a re-analysis of the deposited data

Results flagged for a closer look

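In 4 genes the mesothelial cells and all other cells stood on opposite sides of the 2-fold limit between the libraries. The difference between the classes was not tested, since each treatment had 1 library.

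Slpi, a secreted protease inhibitor gene, had a bleomycin over saline ratio of 0.431 [0.4–0.465] in mesothelial cells, from 2617 to 1129 CPM, and of 21.5 in other cells, from 2.88 to 61.7 CPM. Its median per mesothelial cell went the other way, 100 CPM with saline and 336 CPM with bleomycin, 1 saline cell held 26.8% of the UMIs, and the core cells' ratio was 0.505. Clu, the gene of the extracellular chaperone clusterin, had ratios of 0.481 [0.442–0.525] and 2.20, with 1929 and 928 CPM in mesothelial cells, and 0.565 in core cells. Both thus fell short of the limit in core cells.

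Casp4, an inflammatory caspase gene, had a ratio of 2.54 [1.5–4.65] in mesothelial cells, from 36.9 to 93.8 CPM, and of 0.485 in other cells, from 84.9 to 41.2 CPM. Icam1, the gene of a leukocyte adhesion molecule, had ratios of 2.19 [1.75–2.79] and 0.434, with 204 and 448 CPM in mesothelial cells. In core cells the ratios were 2.94 for Casp4 and 2.82 for Icam1.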

How the results depend on the processing

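With a minimum of 10 CPM in place of 50, 838 genes were higher and 546 lower in mesothelial than in other cells, and 395 were higher and 553 lower in bleomycin. With 200 CPM the counts were 110, 94, 57 and 43. With a 3-fold limit 153 genes were lower than in other cells, 85 higher and 40 lower in bleomycin. These limits test other numbers of genes by construction. Mesothelial cells were 0.659% of saline cells with at least 2 markers and 0.95% of bleomycin cells as core cells, a set chosen after seeing the data. Over 74 values of named genes and 732 recomputations, 633 stayed near the reported ratio, 99 moved and 0 reversed. The named genes had the most extreme ratios of these data, so a reversal was unlikely from the start. Nearness was judged by a fixed fold tolerance and not by the counting interval. Of the moves 25 came from core cells, 21 from means of per-cell CPM and 16 from leaving out the 5% highest doublet scores. Applying the rule after thinning gave 16 and accepting 2 markers 13, where the Tagln ratio of 18.3 became 1.61. The bleomycin over saline ratios were the less stable part. In core cells 9 of them moved and 15 stayed, and without the 5% highest doublet scores 10 moved and 14 stayed. No paired analysis was possible because each treatment had 1 library. With 40 saline cells, genes under about 50 CPM had too few UMIs to compare.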

Other observations

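Of 14 measured immediate early and heat shock genes, which report handling and stress, 0 were higher and 0 lower in bleomycin mesothelial cells, where 5.13% of all genes were higher and 6.2% lower, and 2 were higher in core cells. In core cells Fosb was at 883 and 2083 CPM and Atf3 at 831 and 1782 CPM, with ratios of 2.36 and 2.14. In other cells both were lower with bleomycin, Fosb at 2191 and 1355 CPM and Atf3 at 1738 and 752 CPM, and the part of handling in these values was not tested. Of 6 measured p53 target genes 2 were higher, Cdkn1a and Plk2, and in core cells Cdkn1a alone, beside 5.13% and 4.52% of all genes. Ccng1, another p53 target, was at 81.1 and 138 CPM, against 27.1 and 65.0 CPM in other cells.

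In metabolism, Ldha, the gene of lactate dehydrogenase, was at 120 CPM with saline and 248 CPM with bleomycin, a ratio of 2.06, and 2.13 in core cells. Hk2, a hexokinase gene, had a ratio of 3.20 over all members and 1.18 in core cells. Fabp5, a fatty acid binding protein gene, was at 133 and 48.9 CPM, a ratio of 0.368. Of the retinoid genes, Rdh10, which makes retinal, was at 29.5 and 73.6 CPM, a ratio of 2.49 and of 3.01 in core cells. Among 5 measured genes of leptin receptor signalling 0 were called in either direction, where 5.13% of all genes were higher and 6.2% lower. Stat3 was at 147 and 209 CPM and Socs3 at 152 and 222 CPM.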
